A study of Mus musculus with 27 samples.

Results

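The 9 genes described here mark the hepatic stellate cell, the retinoid-storing pericyte of the liver, in its quiescent and its activated state. They were taken by symbol from the genes counted in whole mouse liver, 9 of 55414, and each was found by its Ensembl identifier. Acta2, Tagln and Myh11 encode contractile proteins, and Des and Vim intermediate filament proteins. Lrat, Reln, Hgf and Cygb were taken as markers of the quiescent cell, a grouping that was not tested here.

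The livers came from 27 female Balb/c mice of 8 weeks in 8 groups, studied to compare 4-methylumbelliferone (4MU), an inhibitor of hyaluronan synthesis, with knockdown of hyaluronan synthase 2 in carbon tetrachloride (CCl4) fibrosis. Mice without CCl4 received olive oil into the peritoneum: 4 control mice also had PBS by tail vein 2 times per week for 2 weeks, 3 mice had 4MU by daily gavage, 3 had lipid nanoparticles with an siRNA against luciferase (siLuc-LNP), which mice lack, and 3 had nanoparticles with an siRNA against Has2 (siHAS2-LNP). CCl4 was injected into the peritoneum in the other 4 groups, alone in 2 mice (CCl4) or with the same agents in 4 mice each (named CCl4 + 4MU, CCl4 + siLuc-LNP and, for the last, CCl4 + siHAS2-LNP). The labels name no gavage vehicle or tail vein injection for the CCl4 group. RNA was taken from total liver homogenate, in which 5 hepatocyte genes (Alb, Ttr, Apoa1, Cps1 and Serpina1c) summed to 72229 to 194758 CPM, and in which fewer stellate cells and less RNA per stellate cell cannot be told apart.

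In the healthy liver, stellate cells lie in the space of Disse, esterify and store vitamin A, and release hepatocyte growth factor. After injury they lose retinoid droplets, take on smooth muscle actin and other contractile proteins, and lay down collagen. Several of these genes are shared with other cells: vascular smooth muscle makes Acta2, Tagln, Myh11 and Des, leukocytes and endothelium make Vim, and lymphatic endothelium makes Reln.

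Counts per library ranged from 7044386, in CCl4 + siHAS2-LNP mouse 4, to 29425937, and levels are given as CPM, a count relative to the library total after TMM scaling. A limit of 3 counts corresponded to 0.104 to 0.400 CPM, which covers counting error only. Nothing in the labels ties mice to a batch or day. Has2, the target of the siRNA, had 0 counts in 25 of 27 libraries and at most 2, so its knockdown was not detectable at this depth. CCl4 + 4MU mouse 4 stood apart in smooth muscle transcripts, and results of the tested genes that rest on it or on the shallow library are given with and without them, as are results of the other gene lists that rest on it. Lrat, Reln, Hgf and Cygb were detected in every library, with at least 81, 466, 16 and 40 counts. Tagln had 152 counts over all 27 libraries, a mean of 5.63, below the mean of 10 required for testing, so 8 of the 9 genes entered the tests.

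The promoters of Acta2, with the largest averaged response to CCl4 among the tested genes, and of Lrat, with the smallest, are shown because the CArG box, the binding sequence of serum response factor in contractile genes, was searched in them. The search took CC, 6 bases with at most 1 G or C, and GG, a pattern that reads alike on both strands, and matches are in capitals. The RefSeq promoter table (GRCm38.p6, an earlier build than the GRCm39 of the counts, 250 bases before to 50 after the start) held 6 of the 9 genes, and Tagln, Myh11 and Cygb had no entry. The Acta2 promoter lies at chr19:34255324-34255623 and that of Lrat at chr3:82903925-82904224, both on the minus strand.
Acta2: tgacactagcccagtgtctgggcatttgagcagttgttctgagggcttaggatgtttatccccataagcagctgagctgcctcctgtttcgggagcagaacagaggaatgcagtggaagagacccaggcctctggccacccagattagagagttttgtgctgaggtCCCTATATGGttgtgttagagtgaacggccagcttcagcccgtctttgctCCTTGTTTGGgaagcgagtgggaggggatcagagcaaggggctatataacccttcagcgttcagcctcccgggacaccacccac
Lrat: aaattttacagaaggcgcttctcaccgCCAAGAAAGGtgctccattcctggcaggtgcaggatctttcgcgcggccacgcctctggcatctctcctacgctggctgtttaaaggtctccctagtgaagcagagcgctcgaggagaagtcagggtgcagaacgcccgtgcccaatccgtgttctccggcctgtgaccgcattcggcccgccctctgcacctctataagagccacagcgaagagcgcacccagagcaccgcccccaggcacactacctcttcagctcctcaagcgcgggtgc
The Acta2 promoter held 2 matches, CCCTATATGG and CCTTGTTTGG, which began at positions -84 and -34 from the start in the table. The Lrat promoter held 1, CCAAGAAAGG at -223, and the 5 other promoters, of Des, Vim, Reln and Hgf (which has 2), held none. Of all 32851 promoters in the table, 9.98% held at least 1 match and 0.822% at least 2. With no G or C allowed in the 6 bases, no promoter of these genes matched, against 1.63% of all.

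Per kilobase of merged exon, the median levels over the 27 livers were 6.51 FPKM for Vim, 2.82 for Reln, 2.66 for Cygb, 2.32 for Lrat, 1.05 for Des, 0.595 for Acta2, 0.450 for Hgf, 0.117 for Myh11 and 0.0957 for Tagln. Vim, a filament protein of most mesenchymal cells, stood above the other genes in this order, but the ranges over the mice of any neighbours in it overlapped. FPKM here divides the CPM by the merged exon length in GENCODE vM39. That length exceeds the canonical transcript unequally: 23738 against 11693 bases for Reln and 4752 against 2193 for Vim, but 5359 in both for Lrat. The order therefore holds for merged lengths only. All fold changes below are log2 fold changes of edgeR's quasi-likelihood test over 14114 genes, with the standard error (SE) and the p adjusted by Benjamini and Hochberg over all of them.

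**Figure D1:**
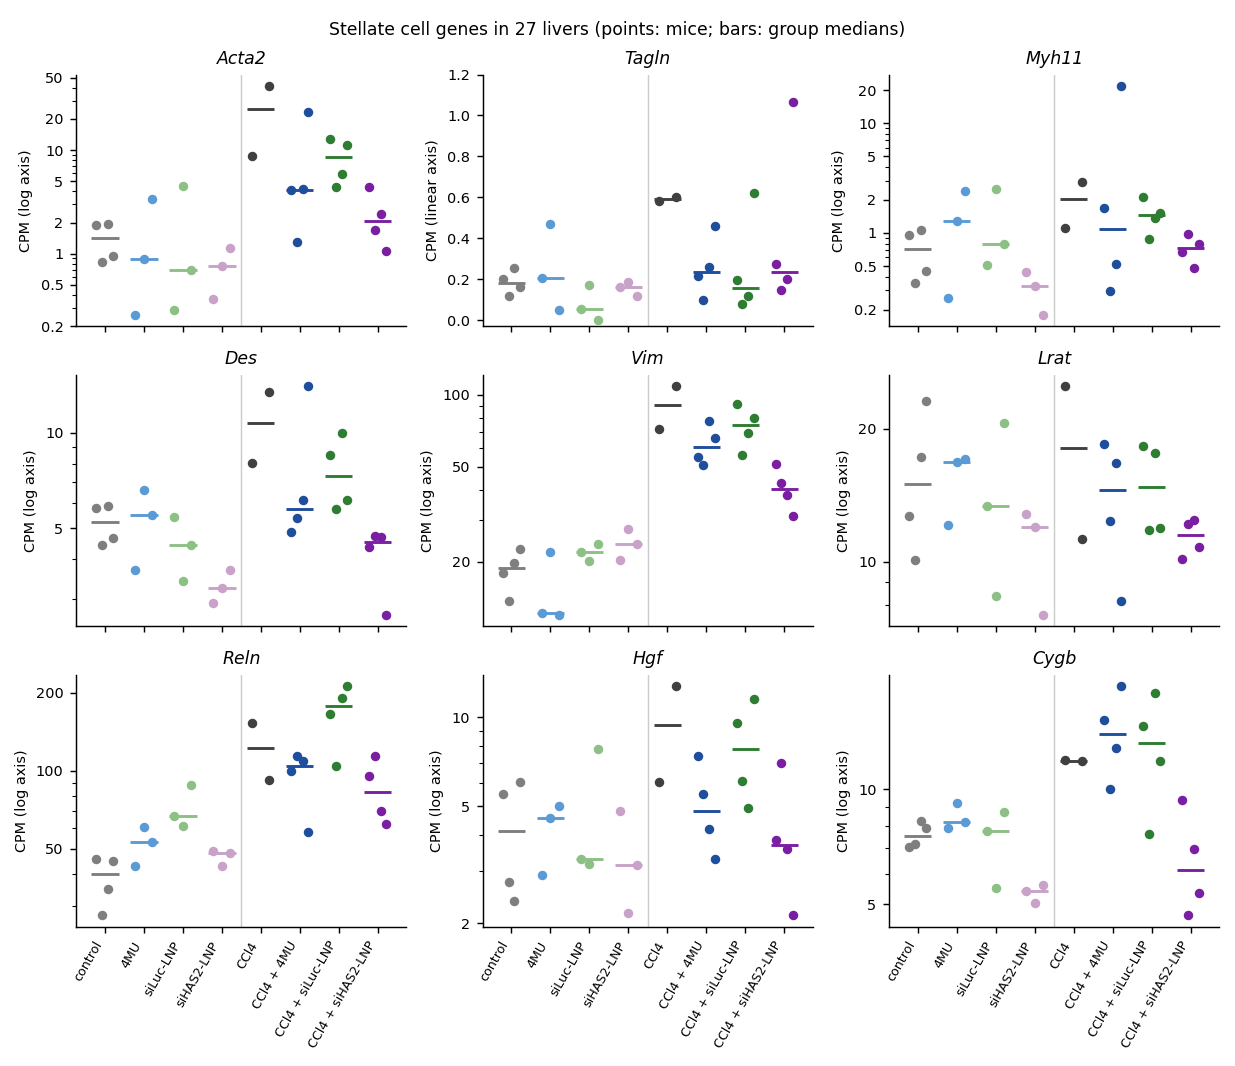
Level of each of the 9 genes in CPM (log axis, linear for Tagln) in the 8 groups, with 1 point per mouse and a bar at the group median; groups to the right of the grey line received CCl4. All 14 CCl4 livers lie above all 13 others for Vim, while for Lrat the ranges overlap.

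The first question was what CCl4 did to these genes. With the difference between CCl4 and no CCl4 averaged over the 4 treatments, 7 of the 8 tested genes rose and none fell, where 26.3% of all 14114 genes rose. Their median log2 fold change was 0.92 and that over all genes -0.02. Acta2 rose most and Lrat, at 0.05, did not pass the threshold. In the plain comparison of CCl4 with control livers, 5 of the 8 rose, Acta2, Des, Vim, Reln and Hgf, with 18% of all genes higher. Within the treated arms, 4 rose with CCl4 + 4MU over 4MU (13.2% of all genes), 3 with CCl4 + siLuc-LNP over siLuc-LNP (13%), and 2 with CCl4 + siHAS2-LNP over siHAS2-LNP (7.74%). The CCl4 group has 2 mice. Without CCl4 mouse 2, which leaves 1 mouse there, the rise over control was 2.65 for Acta2, 0.65 for Des and 0.55 for Hgf. Whichever mouse was left out, Vim stayed at 1.98 or more and Reln at 1.28 or more. Any threshold after that omission assumes that the lone mouse left varies like the other groups. The 4 in the 4MU arm became 1 without 4MU mouse 1, and 2 without 4MU mouse 2, 4MU mouse 3 or CCl4 + 4MU mouse 4. In those fits 2151 to 2952 of all genes were called in either direction. The 2 in the siHAS2-LNP arm became 0 without siHAS2-LNP mouse 1 or 3 or CCl4 + siHAS2-LNP mouse 1 or 2, and 1 without siHAS2-LNP mouse 2. There 1036 to 1773 of all genes were called in either direction. P-values measure the spread between these mice, which the labels give as separate replicates.

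**Figure D2:**
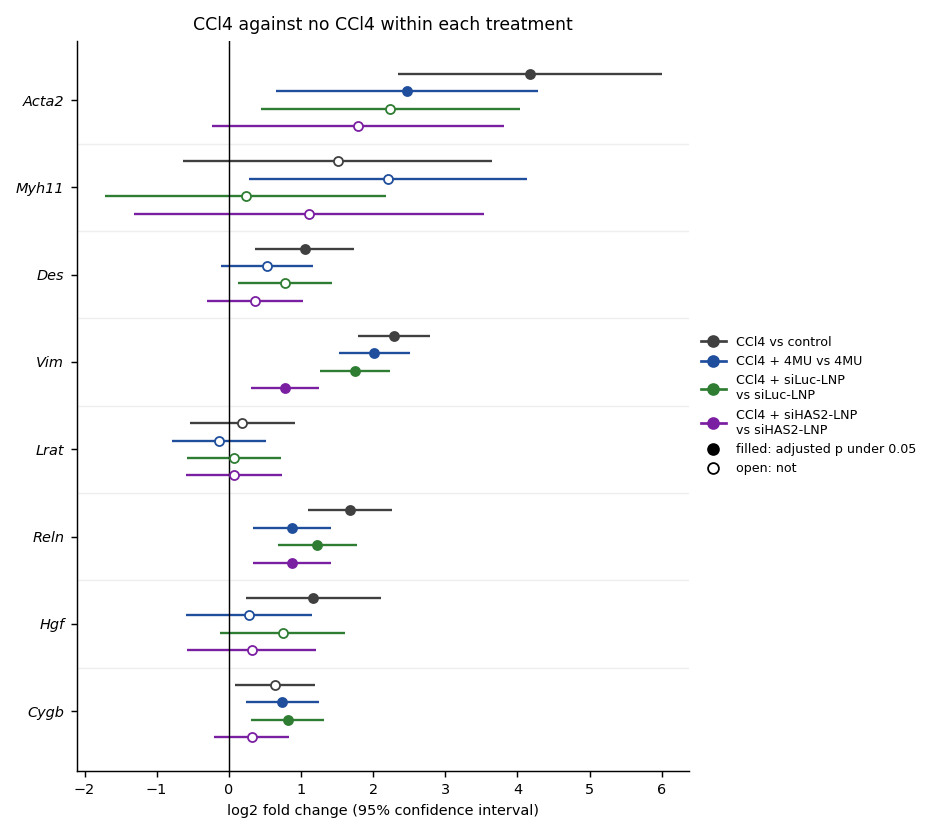
Log2 fold change (points) and its 95% confidence interval (lines) of CCl4 against no CCl4 for the 8 tested genes within each of the 4 treatments; filled points passed the adjusted p of 0.05. Vim and Reln are filled in all 4 treatments and Lrat in none.

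Acta2 (ENSMUSG00000035783, GRCm39 chromosome 19, 34217737 to 34232990, minus strand, 9 exons) encodes alpha smooth muscle actin, the usual marker of the activated stellate cell. It measured 1.88, 0.826, 1.92 and 0.939 CPM in control livers, 0.256, 0.897 and 3.34 with 4MU, 0.286, 4.55 and 0.702 with siLuc-LNP and 0.363, 0.754 and 1.13 with siHAS2-LNP. It measured 8.70 and 41.6 CPM in the CCl4 livers, 4.08, 1.295, 4.17 and 23.2 with CCl4 + 4MU, 12.7, 4.39, 5.82 and 11.2 with CCl4 + siLuc-LNP, and 4.38, 1.71, 2.41 and 1.07 with CCl4 + siHAS2-LNP. Of the 14 CCl4 livers, 6 lay above all 13 others, and CCl4 mouse 2 was the highest of all. Averaged over the treatments, Acta2 rose by 2.67 (SE 0.455, adjusted p = 2.96e-05), a 6.35-fold difference with a 95% confidence interval of 3.32 to 12.2. Against control, CCl4 livers were higher by 4.17 (SE 0.888, adjusted p = 0.000854), and without CCl4 mouse 2 by 2.65, which did not pass the threshold. In the CCl4 + 4MU arm Acta2 rose by 2.47 (SE 0.881, adjusted p = 0.0423), and without mouse 4 of that group the value was 1.11 and without 4MU mouse 1 or mouse 2 it was 2.00 or 2.19, none past the threshold. The siLuc-LNP and siHAS2-LNP arms gave 2.23 (SE 0.871, adjusted p = 0.0632) and 1.79 (SE 0.981, adjusted p = 0.246). The first of these passed the threshold without siLuc-LNP mouse 2, at 4.05, and without CCl4 + siLuc-LNP mouse 2, at 2.47.

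Myh11 (ENSMUSG00000018830, chromosome 16, 14012399 to 14109236, minus strand, 41 exons) encodes the smooth muscle myosin heavy chain. In livers without CCl4 it ranged from 0.179 to 2.50 CPM with a median of 0.514. In CCl4 livers it measured 1.12 and 2.94 CPM, with CCl4 + 4MU 1.68, 0.299, 0.517 and 21.8, with CCl4 + siLuc-LNP 2.11, 0.886, 1.38 and 1.52, and with CCl4 + siHAS2-LNP 0.665, 0.976, 0.481 and 0.800. Of the 14 CCl4 livers, 2 lay above all others, CCl4 mouse 2 and CCl4 + 4MU mouse 4, the highest of all 27, and the ranges otherwise overlapped. The averaged CCl4 effect was 1.26 (SE 0.514, adjusted p = 0.0421), and it lost the threshold in 16 of 35 alternatives, with 0.55 without that mouse and 1.05 without CCl4 mouse 2. No single arm passed the threshold, with values of 1.51 (SE 1.04, adjusted p = 0.271) for CCl4 against control, 2.204 (SE 0.936, adjusted p = 0.0890) in the 4MU arm, 0.23 in the siLuc-LNP arm and 1.11 in the siHAS2-LNP arm. In the 4MU arm the difference turned to -0.66 without CCl4 + 4MU mouse 4, and it passed the threshold without mouse 2 or mouse 3 of that group, at 2.58 and 2.59.

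Tagln (ENSMUSG00000032085, chromosome 9, 45840909 to 45847404, minus strand, 5 exons) encodes transgelin, an actin-binding protein of smooth muscle. Its counts ranged from 0 to 18 per library, with 3 or fewer in 6 of 13 livers without CCl4 and in 4 of 14 with it. The median was 0.163 CPM without CCl4 and 0.237 with it. In GENCODE vM39, 66.7% of its exon bases lie under genes of the opposite strand, chiefly Gm48529 (1241 bases) and Pcsk7. The strand setting of the counting is not stated, so whether the overlap raised or lowered these few counts is not known. Livers with CCl4 alone measured 0.583 and 0.602 CPM and the highest value, 1.07 CPM, was 8 counts in CCl4 + siHAS2-LNP mouse 4. With no filter on low counts, the averaged CCl4 effect of Tagln was 1.16 (SE 0.393, adjusted p = 0.0171), and no other comparison passed. With filterByExpr, which also kept it, the averaged effect was 1.15 (adjusted p = 0.0214). No other gene of the 9 shared more than 13.4% of its exon bases with another gene.

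Des (ENSMUSG00000026208, chromosome 1, 75320511 to 75345223, plus strand, 9 exons) encodes desmin, the intermediate filament by which rodent stellate cells are usually stained. Livers without CCl4 ranged from 2.90 to 6.59 CPM with a median of 4.43. CCl4 livers measured 8.02 and 13.5 CPM, CCl4 + 4MU livers 4.86, 5.38, 6.17 and 14.04, CCl4 + siLuc-LNP livers 8.53, 5.74, 10.01 and 6.13, and CCl4 + siHAS2-LNP livers 4.38, 4.73, 4.69 and 2.67. Only 5 of the 14 CCl4 livers exceeded all others, and CCl4 + siHAS2-LNP mouse 4 was the lowest of all 27. The averaged effect was a rise of 0.68 (SE 0.161, adjusted p = 0.00106), 1.602-fold, and it passed in all 35 alternatives. CCl4 livers were higher than control by 1.05 (SE 0.334, adjusted p = 0.0175), and without CCl4 mouse 2 the value was 0.65 and did not pass.

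Vim (ENSMUSG00000026728, chromosome 2, 13578738 to 13587639, plus strand, 9 exons) encodes vimentin. It measured 17.9, 13.6, 19.7 and 22.5 CPM in control livers, 12.2, 21.9 and 11.9 with 4MU, 22.002, 20.1 and 23.8 with siLuc-LNP and 20.4, 27.3 and 23.8 with siHAS2-LNP. It measured 71.8 and 109 CPM in CCl4 livers, 55.1, 51.0, 77.4 and 66.1 with CCl4 + 4MU, 91.8, 55.8, 69.5 and 79.7 with CCl4 + siLuc-LNP, and 51.4, 42.7, 38.1 and 30.9 with CCl4 + siHAS2-LNP. All 14 CCl4 livers lay above all 13 others, a separation that 3.21% of the 14114 tested genes showed in this direction. The averaged effect was a rise of 1.71 (SE 0.119, adjusted p = 1.36e-11), 3.27-fold with a 95% confidence interval of 2.76 to 3.88. By arm, Vim rose by 2.29 (SE 0.243, adjusted p = 1.12e-07) over control, 2.02 (SE 0.239, adjusted p = 1.39e-06) with 4MU, 1.75 (SE 0.235, adjusted p = 6.34e-06) with siLuc-LNP and 0.78 (SE 0.228, adjusted p = 0.0244) with siHAS2-LNP. The last of these lost the threshold without siHAS2-LNP mouse 1 or 3 or CCl4 + siHAS2-LNP mouse 1 or 2, with values of 0.65 to 0.77.

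Lrat (ENSMUSG00000028003, chromosome 3, 82799886 to 82811288, minus strand, 2 exons) encodes lecithin retinol acyltransferase, the enzyme that esterifies retinol for storage. It measured 12.7, 10.1, 17.2 and 23.2 CPM in control livers, 12.1, 16.8 and 17.0 with 4MU, 13.4, 8.37 and 20.6 with siLuc-LNP and 12.8, 12.0 and 7.59 with siHAS2-LNP. With CCl4 it measured 24.99 and 11.3 CPM, with CCl4 + 4MU 18.5, 12.4, 16.7 and 8.18, with CCl4 + siLuc-LNP 18.3, 11.8, 17.6 and 11.9, and with CCl4 + siHAS2-LNP 10.2, 12.2, 12.4 and 10.8. The highest and a low value both came from the 2 CCl4 livers, and the medians with and without CCl4 were 12.3 and 12.8 CPM. The averaged CCl4 effect was 0.05 (SE 0.164, adjusted p = 0.820), with a 95% confidence interval of -0.29 to 0.39. No comparison called Lrat.

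Reln (ENSMUSG00000042453, chromosome 5, 22089452 to 22549700, minus strand, 64 exons) encodes reelin, a secreted glycoprotein that in the liver marks stellate cells and lymphatic endothelium. It measured 45.7, 27.7, 34.98 and 44.6 CPM in control livers, 42.8, 60.4 and 52.9 with 4MU, 67.0, 60.9 and 88.1 with siLuc-LNP and 48.8, 43.0 and 48.3 with siHAS2-LNP. It measured 153 and 91.9 CPM in CCl4 livers, 99.7, 114, 109 and 58.0 with CCl4 + 4MU, 166, 104.55, 190.4 and 213 with CCl4 + siLuc-LNP, and 95.3, 114, 69.7 and 62.2 with CCl4 + siHAS2-LNP. Of the 14 CCl4 livers, 11 lay above all others. The averaged effect was a rise of 1.16 (SE 0.135, adjusted p = 1.11e-07), 2.24-fold with a 95% confidence interval of 1.85 to 2.71. By arm, Reln rose by 1.68 (SE 0.281, adjusted p = 6.26e-05) over control, 0.87 (SE 0.263, adjusted p = 0.0180) with 4MU, 1.23 (SE 0.265, adjusted p = 0.00149) with siLuc-LNP and 0.87 (SE 0.263, adjusted p = 0.0287) with siHAS2-LNP. The rise with 4MU lost the threshold without 4MU mouse 1 or 3 or CCl4 + 4MU mouse 2 (0.75 to 0.88), and that with siHAS2-LNP without any of the 3 siHAS2-LNP mice or CCl4 + siHAS2-LNP mouse 1 or 2 (0.70 to 0.91).

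Hgf (ENSMUSG00000028864, chromosome 5, 16758041 to 16828178, plus strand, 18 exons) encodes hepatocyte growth factor, a mitogen for hepatocytes that stellate and endothelial cells secrete. Livers without CCl4 ranged from 2.17 to 7.81 CPM with a median of 3.31. CCl4 livers measured 6.03 and 12.8 CPM, CCl4 + 4MU livers 7.39, 5.48, 4.17 and 3.31, CCl4 + siLuc-LNP livers 9.59, 6.09, 4.92 and 11.6, and CCl4 + siHAS2-LNP livers 3.83, 6.98, 3.57 and 2.13. The ranges overlapped, with 3 CCl4 livers above all others. The averaged effect was a rise of 0.63 (SE 0.218, adjusted p = 0.0182), which became 0.47 and did not pass without CCl4 mouse 2. Against control the value was 1.17 (SE 0.454, adjusted p = 0.0486), and it lost the threshold when mouse 2 (1.04) or mouse 3 (0.99) of the controls was left out, or mouse 2 of the CCl4 group (0.55).

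Cygb (ENSMUSG00000020810, chromosome 11, 116535970 to 116545406, minus strand, 4 exons) encodes cytoglobin, an oxygen-binding globin that in the liver is found in stellate cells. It measured 7.07, 7.19, 8.23 and 7.92 CPM in control livers, 7.93, 9.21 and 8.196 with 4MU, 7.77, 5.52 and 8.74 with siLuc-LNP and 5.41, 5.04 and 5.61 with siHAS2-LNP. It measured 11.9 and 11.8 CPM in CCl4 livers, 15.1, 10.01, 12.8 and 18.6 with CCl4 + 4MU, 14.6, 7.63, 17.9 and 11.8 with CCl4 + siLuc-LNP, and 9.38, 4.68, 6.98 and 5.34 with CCl4 + siHAS2-LNP. Of the 14 CCl4 livers, 10 lay above all others, and 3 of the 4 below that mark had received CCl4 + siHAS2-LNP. The averaged effect was a rise of 0.63 (SE 0.126, adjusted p = 0.000199), 1.55-fold, that passed in all 35 alternatives. Cygb rose by 0.74 (SE 0.244, adjusted p = 0.0281) in the 4MU arm and by 0.82 (SE 0.246, adjusted p = 0.0176) in the siLuc-LNP arm. The first call was lost without any of the 3 4MU mice or CCl4 + 4MU mouse 1 or 4 (0.58 to 0.81), and the second without siLuc-LNP mouse 2 or CCl4 + siLuc-LNP mouse 3 (both 0.65). Against control the value was 0.64 (SE 0.268, adjusted p = 0.0670), and in the siHAS2-LNP arm 0.32 (SE 0.252, adjusted p = 0.446).

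Whether the treatments differed in their CCl4 effect was tested by interaction terms, and none of the 8 genes passed in any of them. The interaction of 4MU with CCl4 called 5.67% of all genes, that of siLuc-LNP with CCl4 0.00709%, and that of siHAS2-LNP with CCl4 relative to siLuc-LNP 0.0354%. At an unadjusted p of 0.05, Reln passed in the first (-0.81, SE 0.385, adjusted p = 0.185) and Vim in the last (-0.97, SE 0.318, adjusted p = 0.237). Of all 14114 genes, 3603 passed at that p in the first, 1411 in the second and 1612 in the last. Between the arms compared by these terms, an effect called in one and not in the other is therefore not shown to differ. The siHAS2-LNP arm was set against the siLuc-LNP arm only. Its CCl4 effect was not tested against that of the untreated or the 4MU arm, nor the 4MU arm against the siLuc-LNP arm.

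The second question was what the treatments did to these genes once CCl4 was given. The 3 comparisons with CCl4 share its 2 mice, so each is given by its own values. CCl4 + 4MU against CCl4 called none of the 8 genes, while 18.3% of all genes changed in either direction. At an unadjusted p of 0.05, 1 of the 8 passed, Vim, with -0.53 (SE 0.246, adjusted p = 0.127), where 4777 of all 14114 genes did. The value of Acta2 was -1.61 (SE 0.817, adjusted p = 0.167), and without CCl4 + 4MU mouse 4 it was -2.97 and passed the threshold, as did limma-voom with sample weights at -2.37, with adjusted p from 0.00125 to 0.974 over its 14 alternatives. Without that mouse 2 genes were lower, Acta2 and Des, where 1651 of all genes were called in either direction. Des then gave -0.98 on the log2 scale where all 4 mice gave -0.50. Hgf gave -0.89 (SE 0.453, adjusted p = 0.166), and Myh11 1.58 (SE 1.04, adjusted p = 0.297), which was -1.29 without the same mouse. CCl4 + siLuc-LNP against CCl4 called none, with 0.248% of all genes changed in either direction. None passed at an unadjusted p of 0.05, where 2001 of all 14114 genes did. The values there ran from -1.56 for Acta2 (SE 0.818, adjusted p = 0.397) to 0.46 for Reln.

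CCl4 + siHAS2-LNP against CCl4 called 4 of the 8 genes lower and none higher, where 7.33% of all genes were lower, and the fold change was negative for all 8. Acta2 was lower by -3.32 (SE 0.857, adjusted p = 0.0126), Des by -1.35 (SE 0.337, adjusted p = 0.0102), Vim by -1.14 (SE 0.243, adjusted p = 0.00406) and Cygb by -0.83 (SE 0.269, adjusted p = 0.0405). For these 4 genes, taken by their calls, both CCl4 mice lay above all 4 CCl4 + siHAS2-LNP mice. The share of all genes separated in this way was not counted. Hgf gave -1.15 (SE 0.457, adjusted p = 0.0896), Myh11 -1.51 (SE 1.06, adjusted p = 0.353), Lrat -0.66 (SE 0.353, adjusted p = 0.213) and Reln -0.52 (SE 0.286, adjusted p = 0.227), none past the threshold. Without CCl4 mouse 2, which leaves 1 mouse in that group, the values were -1.82 for Acta2, -0.96 for Des, -0.84 for Vim and -0.86 for Cygb, smaller in size for all but Cygb. No call is read from a fit with 1 CCl4 mouse, so the 4 calls are not shown to hold without it. Hgf passed without CCl4 + siHAS2-LNP mouse 2, at -1.53. Cygb lost the threshold without CCl4 + siHAS2-LNP mouse 2 (-0.70), mouse 3 (-0.86) or mouse 4 (-0.76). It gave -0.83 without CCl4 mouse 1, which also leaves 1 mouse, and no call is read there.

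CCl4 + siHAS2-LNP against CCl4 + siLuc-LNP compares 2 nanoparticle groups of 4 mice that differ in the siRNA. Here 3 of the 8 genes were lower and none higher, with 0.305% of all genes lower, and all 8 fold changes were negative. Vim was lower by -0.86 (SE 0.207, adjusted p = 0.0433), Reln by -0.98 (SE 0.240, adjusted p = 0.0445) and Cygb by -0.95 (SE 0.227, adjusted p = 0.0424). All 4 CCl4 + siHAS2-LNP mice lay below all 4 CCl4 + siLuc-LNP mice for Vim, a separation not counted over all genes, and the ranges overlapped for Reln and Cygb. Acta2 gave -1.76 (SE 0.759, adjusted p = 0.238), Des -0.85 (SE 0.290, adjusted p = 0.136) and Hgf -0.93 (SE 0.3902, adjusted p = 0.224). The 3 calls lay close to the threshold: they became 0 without CCl4 + siHAS2-LNP mouse 3 or 4 or CCl4 + siLuc-LNP mouse 1 or 4, and 1 without CCl4 + siHAS2-LNP mouse 2 or CCl4 + siLuc-LNP mouse 3. Of all genes, 4 to 30 were called in either direction in the fits with 0, and 58 and 243 in those with 1. Reln alone lost the threshold without CCl4 + siHAS2-LNP mouse 1, at -1.04.

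CCl4 + 4MU against CCl4 + siHAS2-LNP called 1 of the 8 genes higher, where 0.765% of all genes were higher. Cygb was higher with 4MU by 1.08 (SE 0.227, adjusted p = 0.0198). All 4 CCl4 + 4MU mice lay above all 4 CCl4 + siHAS2-LNP mice in Cygb, a separation not counted over all genes. Without CCl4 + 4MU mouse 4 it was 0.92, and without CCl4 + siHAS2-LNP mouse 2, 3 or 4 it was 0.94, 1.10 or 1.00, none past the threshold. Myh11 gave 3.09 (SE 0.914, adjusted p = 0.0820), which passed without CCl4 + 4MU mouse 2 at 3.47 and was 0.22 without CCl4 + 4MU mouse 4. Acta2 gave 1.71 (SE 0.757, adjusted p = 0.224), Des 0.86 (SE 0.289, adjusted p = 0.117) and Vim 0.61 (SE 0.206, adjusted p = 0.120). As each mouse was left out, Acta2 ran from 0.35 to 2.17, Des from 0.38 to 1.02 and Vim from 0.49 to 0.74. Over the other alternatives their lowest values were 0.16, 0.24 and 0.46.

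**Figure D3:**
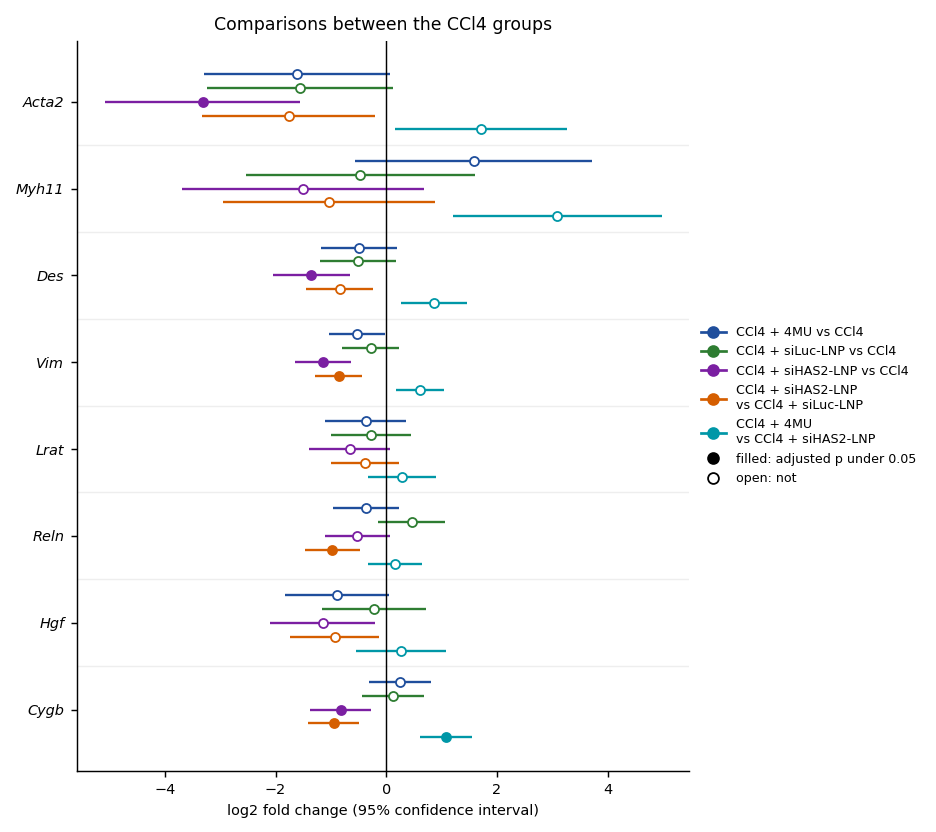
Log2 fold change (points) and its 95% confidence interval (lines) of the 8 tested genes in 5 comparisons between groups that received CCl4; filled points passed the adjusted p of 0.05. The filled points are Acta2, Des, Vim and Cygb in CCl4 + siHAS2-LNP against CCl4, Vim, Reln and Cygb in CCl4 + siHAS2-LNP against CCl4 + siLuc-LNP, and Cygb in CCl4 + 4MU against CCl4 + siHAS2-LNP.

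In mice without CCl4, none of the 8 genes was called for 4MU against control (0.00709% of all genes changed), siLuc-LNP against control (0.213%) or siHAS2-LNP against siLuc-LNP (0.0425%). At an unadjusted p of 0.05, none of the 8 passed in the first, where 966 of all 14114 genes did. In the second Reln passed, with 0.91 (SE 0.256, adjusted p = 0.261), as did 960 of all genes. All 3 siLuc-LNP livers lay above all 4 control livers in Reln. In the third Reln passed too, with -0.63 (SE 0.277, adjusted p = 0.4995), as did 1262 of all genes. All 3 siHAS2-LNP livers lay below all 3 siLuc-LNP livers in Reln. How many of all genes were separated like this was not counted. The intervals were wide for the contractile genes: Acta2 ranged from -1.80 to 1.96 for 4MU against control, and from -3.49 to 0.85 for siHAS2-LNP against siLuc-LNP. For Cygb the interval of 4MU against control was -0.35 to 0.65.

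Other genes of the same programmes were listed by role and described by the averaged CCl4 effect, beside a median over all genes of -0.02, with 26.3% of all genes higher and 25.6% lower. Of 12 scar matrix genes, which encode collagens and their modifiers, 12 rose and none fell, with a median of 2.52. Timp1, an inhibitor of matrix metalloproteinases, rose by 4.104 (SE 0.218, adjusted p = 9.75e-14), Lox, which cross-links collagen, by 4.09 (SE 0.419, adjusted p = 1.43e-08) and Col1a1, a chain of collagen I, by 4.06 (SE 0.286, adjusted p = 1.93e-11). Of 13 other contractile genes tested, 10 rose and none fell, with a median of 1.12, led by Actg2 at 2.43, Tpm2 at 2.04 and Lmod1 at 1.58. Without CCl4 + 4MU mouse 4, Actg2, Lmod1 and Synpo2 had too few counts to be tested, and of the 10 genes left 7 rose, with a median of 0.68 and Tpm2 at 1.73. Of 8 other intermediate filament genes, 7 rose and none fell, with a median of 0.74, led by Krt19 at 1.99 and Krt7 at 1.58, keratins of bile duct cells, and by Nes at 1.15, which encodes nestin. Without the same mouse, Krt19 rose by 0.99 and Krt7 by 1.38, and again 7 of 8 rose.

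Of the genes taken above as markers of the quiescent cell, Reln, Hgf and Cygb rose in the averaged effect, Lrat was not called and none fell. The lists of other genes, for stellate cell identity, retinoids, HGF and reelin, moved in both directions in this whole-liver RNA. Of 14 other stellate cell identity genes tested, 3 rose and 7 fell, with a median of -0.33, where 26.3% of all genes rose and 25.6% fell. Angptl6 fell by 1.58 on the log2 scale and Ecm1 by 1.00. Of 13 retinoid handling genes, 2 rose and 6 fell, with a median of -0.19, beside the same shares of all genes. Rdh11, a retinol dehydrogenase, fell by 1.03 and Aldh1a1, a retinaldehyde dehydrogenase, by 0.75. Of 8 genes for HGF activation and its receptor, 4 rose and 2 fell, with a median of 0.68, led by the proteases Plat at 2.99, Plau at 2.14 and St14 at 1.88. Without CCl4 + 4MU mouse 4, 3 of the 7 then tested rose and 2 fell, with a median of 0.22. Of 6 reelin receptor and adaptor genes tested, 2 rose and 2 fell, with a median of -0.09, and 1 fell without that mouse. The reelin receptor Vldlr fell by 2.50 on the log2 scale (SE 0.198, adjusted p = 1.55e-10), and the adaptors Dab1 and Dab2 rose by 2.16 and 0.48.

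Between the CCl4 groups, the scar matrix list was lower in 3 of 12 genes with CCl4 + 4MU against CCl4 (Lox -2.21, Timp1 -1.52, Col5a2 -1.18; median -0.91), where 10% of all genes were lower and 8.28% higher. Without CCl4 + 4MU mouse 4, 1 of the 12 was lower, Timp1 at -1.502, and Lox gave -1.88 (adjusted p = 0.0644) and Col5a2 -0.97 (adjusted p = 0.0680). The list was lower in 8 of 12 with CCl4 + siHAS2-LNP against CCl4 (median -1.43), among them Col1a1 at -1.81, Col1a2 at -1.73 and Loxl1 at -1.52, where 7.33% of all genes were lower and 7.11% higher. The other contractile genes were lower in 3 of 13 in the first comparison (Flna -0.75, Tpm1 and Cald1 both -0.62) and in 4 of 13 in the second (Tpm2 -1.94, Flna -1.33, Smtn -0.82 and Tpm1). Without the same mouse the first comparison called 3 of 10, Flna at -0.89, Tpm1 at -0.72 and Tpm2 at -1.69, and Cald1 gave -0.57 (adjusted p = 0.0617). Of the 14 identity genes, Angptl6 (1.66) and Hand2 (1.05) were higher with CCl4 + 4MU, Hand2 at 0.89 not passing without that mouse (adjusted p = 0.0951), and Pdgfra (-0.97) was lower with CCl4 + siHAS2-LNP. Stra6l was the retinoid gene called in both, higher by 0.74 and 0.89. Plau and Plat, activators of plasminogen, were lower in both, by -2.28 and -1.81 with CCl4 + 4MU and by -2.27 and -2.31 with CCl4 + siHAS2-LNP, and Hgfac, the HGF activator, was higher by 1.43 with CCl4 + 4MU. Nes was lower in both, by -1.73 and -2.28, and Krt7 by -2.19 in the second. The reelin list had no call in any of these comparisons. CCl4 + siLuc-LNP against CCl4 called none of these lists' genes. CCl4 + siHAS2-LNP against CCl4 + siLuc-LNP called 1, Lum at -1.04, and CCl4 + 4MU against CCl4 + siHAS2-LNP called Actg2 at 4.73 and Krt19 at 4.33. Both calls rest on CCl4 + 4MU mouse 4: without it Actg2 had too few counts to be tested and Krt19 gave 0.23 (adjusted p = 0.900).

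Markers of other cells that express these genes also moved with CCl4, and their part in the results was not tested. Beside Acta2, Myh11 and Des, 2 of 6 tested vascular smooth muscle and pericyte genes rose and 2 fell (median -0.20; 1 fell without CCl4 + 4MU mouse 4), and the list's 9 genes summed to 47.9 to 98.6 CPM without CCl4 and 39.6 to 80.7 with it, with Higd1b at 3 or fewer counts in every library. Beside Vim, 7 of 8 monocyte and macrophage genes rose and none fell (median 1.32), with summed levels of 43.9 to 205 CPM without CCl4 and 140.6 to 693 with it, and 2 of 5 genes of all leukocytes rose (median 0.21; 32.9 to 88.5 and 48.7 to 105.1 CPM). Beside Reln, 2 of 4 tested lymphatic endothelial genes rose and none fell (median 0.56; 72.1 to 123 and 75.9 to 161 CPM for the list of 5). Portal fibroblast and mesothelial genes rose in 7 of 9 and fell in 1 (median 0.81; 45.4 to 153 and 41.0 to 294 CPM). The 294 is CCl4 + 4MU mouse 4, the next highest CCl4 liver measured 101, and the group medians of the summed level were 46.7 to 86.8 CPM with CCl4 and 79.4 to 124 without it. Sinusoidal endothelial genes rose in 5 of 8 and fell in 1 (median 0.37; 64.8 to 175 and 78.3 to 182 CPM). Bile duct genes rose in 5 of 5 (median 1.58; 29.4 to 77.0 and 108 to 692 CPM). The 692 is CCl4 + siLuc-LNP mouse 1 and the next highest liver measured 297, and without CCl4 + 4MU mouse 4 the 5 rose with a median of 1.03. Hepatocyte genes rose in 1 and fell in 3 of 5 (median -0.31), and Kupffer cell genes fell in 4 of 5 (median -0.54; 149.9 to 458 and 89.1 to 381 CPM). Of 7 skeletal muscle genes, 6 had 3 or fewer counts in every library and the 1 tested was not called.

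CCl4 + 4MU mouse 4 differed from the other 3 mice of its group in contractile genes. Myh11 measured 21.8 CPM, 613 counts, against 0.299 to 1.68 CPM in those 3 and at most 2.94 in the other 26 livers. Acta2 measured 23.2 CPM, 653 counts, against 1.295 to 4.17, though CCl4 mouse 2 was higher at 41.6. Other smooth muscle genes, though not Tagln, were also at their highest in this liver: Actg2, enteric smooth muscle actin, measured 6.54 CPM against at most 0.527 in the other 26, Cnn1, calponin, 5.23 against 0.557, and Myl9, a myosin light chain, 26.1 against 7.26. Tagln measured 0.462 CPM, 13 counts, against 0.0996 to 0.258 CPM in the other 3 and up to 1.07 in the other 26. Vim, at 66.1 CPM, lay within the 51.0 to 77.4 of the other 3, and so did not share the pattern. The pericyte genes Notch3 (1.35 CPM, others 1.40 to 2.11) and Rgs5 (20.6 CPM, others 26.6 to 42.2) lay below those of the other 3 mice.

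**Figure D4:**
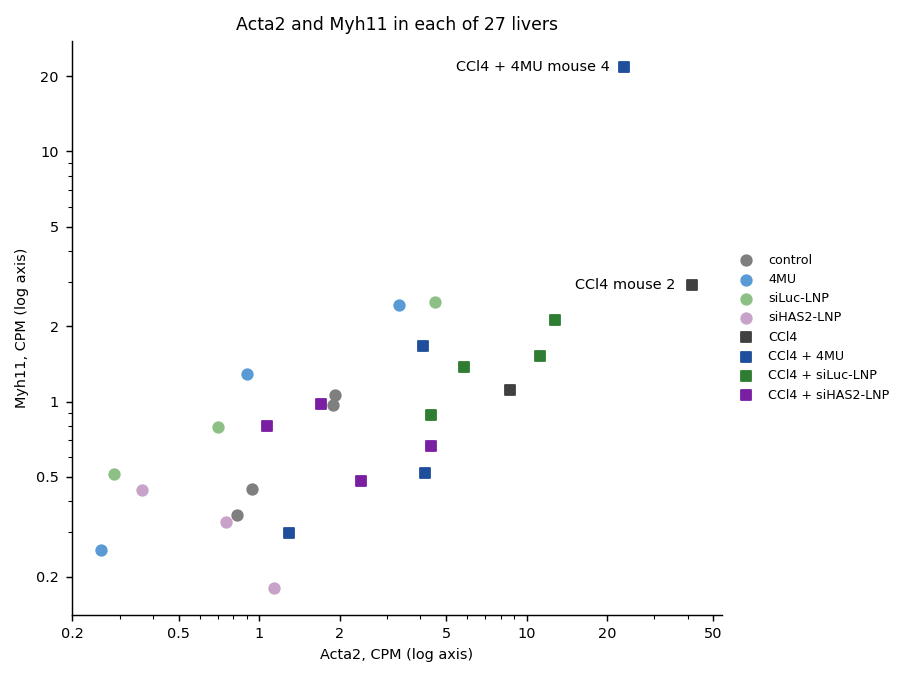
Acta2 against Myh11 in CPM (both axes log) in each of the 27 livers, circles without and squares with CCl4. CCl4 + 4MU mouse 4 stands alone at 21.8 CPM of Myh11, while CCl4 mouse 2 has the highest Acta2, 41.6 CPM, with 2.94 CPM of Myh11.

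Across mice, the 36 pairs among the 9 genes were compared by log2 CPM within the 13 livers without CCl4 and within the 14 with it, by permutation tests (two-sided, 100000 resamples) adjusted over all 72. The resamples shuffled livers across treatment groups, so these p-values also take in differences between group means. In CCl4 livers 5 pairs passed by both Pearson's r and Spearman's rho. Acta2 and Des had r = 0.87 (permutation p = 0.00012, adjusted p = 0.00432) and rho = 0.837 (permutation p = 0.00041, adjusted p = 0.0148). Acta2 and Vim had r = 0.85 (permutation p = 0.00012, adjusted p = 0.00432) and rho = 0.855 (permutation p = 0.00019, adjusted p = 0.0137). Des and Vim had r = 0.81 (permutation p = 0.00044, adjusted p = 0.0106) and rho = 0.811 (permutation p = 0.00072, adjusted p = 0.0173). The contractile gene and both filament genes were thus high and low in the same livers. Acta2 and Myh11 had r = 0.74 (permutation p = 0.00141, adjusted p = 0.0238) and rho = 0.776 (permutation p = 0.0018, adjusted p = 0.0324). Des and Cygb had r = 0.73 (permutation p = 0.00347, adjusted p = 0.0338) and rho = 0.745 (permutation p = 0.00329, adjusted p = 0.0474). Without the 2 livers farthest from the median of the first gene, r was 0.74, 0.88, 0.85, 0.68 and 0.74 for these pairs in turn, and after centring on the group means 0.76, 0.72, 0.54, 0.80 and 0.57. Another 3 pairs passed by Pearson's r alone, Myh11 with Des (0.70), Vim with Hgf (0.70) and Vim with Cygb (0.72), and the r of Vim with Hgf was 0.41 without its 2 farthest livers.

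In livers without CCl4, no pair passed by both measures. By Pearson's r alone, 3 passed: Des with Cygb at 0.80 (permutation p = 0.00165, adjusted p = 0.0238), Acta2 with Myh11 at 0.74 (permutation p = 0.00385, adjusted p = 0.0338) and Lrat with Cygb at 0.71 (permutation p = 0.00745, adjusted p = 0.0488). Their rho was 0.742 (permutation p = 0.00507, adjusted p = 0.0608), 0.615 (permutation p = 0.0275, adjusted p = 0.147) and 0.692 (permutation p = 0.0112, adjusted p = 0.101). Without the 2 farthest livers, which also narrows the range of the first gene, their r was 0.71, 0.44 and 0.69, the lowest for Acta2 with Myh11. After centring each group the r of the 3 pairs was 0.57, 0.83 and 0.69.

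**Figure D5:**
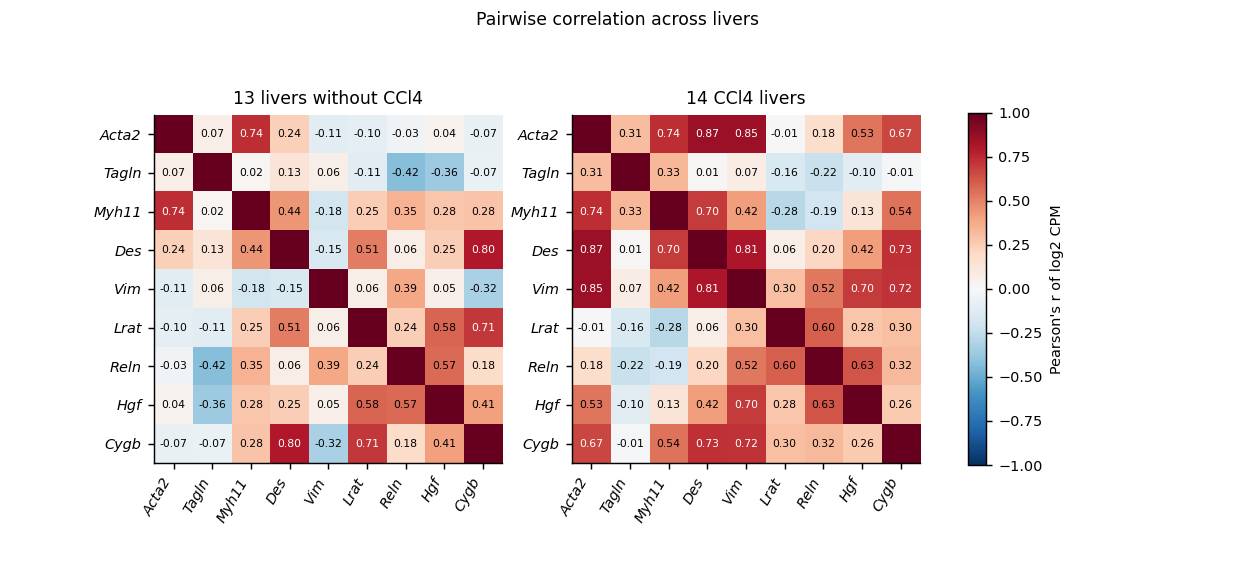
Pearson's r of log2 CPM for each pair of the 9 genes in the 13 livers without CCl4 (left) and the 14 with CCl4 (right), from blue (-1) to red (1). In CCl4 livers Acta2, Des and Vim form the strongest block (0.81 to 0.87), and Tagln, with few counts, has no r above 0.33.

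The genes closest in pattern were sought among 11901 genes by Pearson's r of log2 CPM after centring each group, over the 27 livers, as a description. Acta2 was closest to Tpm2 (0.83), Arhgap10 (0.81) and Myh11 (0.79), and Myh11 to Myl9 (0.83), Acta2 (0.79) and St3gal6 (0.78). Tpm2 and Myl9 encode a tropomyosin and a myosin light chain. Des was closest to Coro1a (0.81), Sox17 (0.79) and Crip1 (0.78), and Vim to Timp2 (0.82), Ahnak (0.82) and Cd48 (0.80). Coro1a and Cd48 are expressed by leukocytes and Sox17 by arterial endothelium. Lrat was closest to Cyp26b1 (0.77), a retinoic acid hydroxylase, Slc40a1 (0.72) and Tfpi (0.67), and Reln to Lhfpl2 (0.73), Erbb4 (0.73) and Marchf1 (0.71). Hgf was closest to Gxylt1 (0.83), Ark2n (0.82) and Ccl6 (0.82), and Cygb to Dpysl3 (0.72), Ighg1 (0.70) and Igsf8 (0.68). The closest genes to Tagln were Ralb (0.81), Pgp (0.69) and Utp14b (0.68), from few counts.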

How the data were processed

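Livers of 27 mice were measured by poly(A) RNA-seq (strand-specific library kit, paired reads). The deposited counts were made by the authors, who trimmed reads with Trimmomatic 0.39, aligned them to GRCm39 with HISAT2 (version not given in the sources used here) and counted read pairs per Ensembl gene with featureCounts under R 3.4.2, leaving out multi-mapping reads. The strand setting is not stated, so reads of overlapping genes on opposite strands may be mixed or left out. The table is raw and was not filtered. Groups were taken from the labels, with 1 library per mouse.

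The 14114 of 55414 genes whose mean count reached 10 were tested with edgeR 4.0.16 (quasi-likelihood, TMM, 1 fit over 8 groups, Benjamini-Hochberg threshold 0.05) in R 4.3.3. CPM used TMM-adjusted totals. Of the identifiers, 54749 had an entry in GENCODE vM39 and 665 had none. The alternatives were DESeq2 1.42.0, limma 3.58.1 (voom with sample quality weights), DESeq2 size factors, no filter on low counts, filterByExpr, a fit limited to the groups compared, a replicate block on the mouse number, each mouse left out and, chosen after seeing the data, CCl4 + 4MU mouse 4 and CCl4 + siHAS2-LNP mouse 4 left out together and, for the gene lists, CCl4 + 4MU mouse 4 left out. Relations were also computed with a prior count of 0.5 in place of 2. Scripts were tested on simulated counts. The 9 genes and all gene lists were chosen with earlier results of these data known. The named genes were the 9, the 3 called genes with the largest change per list, and the 3 closest in pattern; Tpm1, Cald1, Synpo2 and Des without 1 mouse were added after their values were seen. A gene that the rule would name is counted in its lists but not reported here.

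The mouse numbers do not pair the groups: of 28 pairs of groups, 0 had a correlation of deviations above 0.1 for every shared number (83 pairs, median -0.017). All 34 pairs of replicates differed by more than counting noise (chi-square per degree of freedom 15.3 to 416). The precision of low genes is set by library totals of 7044386 to 29425937 counts. Levels, motifs and relations came from Python 3.11.15 (pandas 2.3.3, numpy 2.4.6, and scipy 1.17.1 for the permutation tests), and figures from matplotlib 3.10.9.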

Additional observations from a re-analysis of the deposited data

Results flagged for a closer look

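In 36 sets of 4 mice (9 genes in the 4 groups of that size), a mouse was looked for whose gap to the nearest other mouse, as a share of the group's range, exceeded Dixon's critical value. This was met 5 times, where chance alone gives about 5% of such sets. CCl4 + 4MU mouse 4 lay apart for Acta2, with 23.2 CPM against 1.295 to 4.17 in the other 3 mice, for Myh11, with 21.8 CPM against 0.299 to 1.68, and for Des, with 14.04 CPM against 4.86 to 6.17. CCl4 + siHAS2-LNP mouse 4, the library with the fewest counts, lay apart for Tagln, with 1.07 CPM (8 counts) against 0.146 to 0.274, and for Des, with 2.67 CPM against 4.38 to 4.73.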

How the results depend on the processing

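Of 1259 values of single genes under the alternatives, 1111 kept their direction and side of the threshold, 98 lost it, 35 gained it and 15 changed sign; the causes were not tested. The numbers of the 8 genes called (9 with no filter or filterByExpr, which also tested Tagln) moved over 1.5 times as follows. With no filter on low counts they were 5 in the siLuc-LNP arm, 3 for CCl4 + 4MU and 1 for CCl4 + siLuc-LNP against CCl4, 6 for CCl4 + siHAS2-LNP against CCl4 + siLuc-LNP, 5 for CCl4 + 4MU against CCl4 + siHAS2-LNP, 1 for siLuc-LNP against control and 1 for the siHAS2-LNP interaction. Of all genes, 3485 were then called in either direction in the siLuc-LNP arm. For CCl4 + 4MU against CCl4 that number was 2636, and for CCl4 + siLuc-LNP against CCl4 it was 427. For CCl4 + siHAS2-LNP against CCl4 + siLuc-LNP it was 656. With limma-voom they were 1 for CCl4 + 4MU against CCl4 (2058 of all genes called), 0 for CCl4 + siHAS2-LNP against CCl4 + siLuc-LNP and 1 for siLuc-LNP against control. CCl4 + siHAS2-LNP against CCl4 + siLuc-LNP gave 0 also with the replicate block, with only the compared groups and without both doubted libraries. Of all genes, 12, 0 and 16 were called there in turn, and 12 with limma-voom. CCl4 + 4MU against CCl4 + siHAS2-LNP gave 2 with DESeq2, 0 with only the compared groups and 0 without both libraries. Without both libraries, 2 genes were called in the 4MU arm and 2 for CCl4 + 4MU against CCl4. Of all genes, 2399 and 1582 were called there in turn. The counts with each mouse left out, given next, lack the numbers over all genes and describe these genes only.

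Leaving out each mouse gave 2 to 5 calls for CCl4 against control, 5 to 7 for the averaged effect, 1 to 5 in the 4MU arm, 2 to 4 in the siLuc-LNP arm, 0 to 2 in the siHAS2-LNP arm, 0 to 2 for CCl4 + 4MU against CCl4, 0 to 4 for CCl4 + siHAS2-LNP against CCl4, 0 to 3 for CCl4 + siHAS2-LNP against CCl4 + siLuc-LNP and 0 to 2 for CCl4 + 4MU against CCl4 + siHAS2-LNP.

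Sign changes were mostly of Myh11. In the 4MU arm it ran from -0.66 to 2.93 as each mouse was left out, and was -0.0104 with limma-voom and -0.66 without both libraries. For CCl4 + 4MU against CCl4 these were -1.29 to 2.43, -0.76 and -1.30, and for the 4MU interaction -2.17 to 1.55, -1.51 and -2.18, with -0.94 under the replicate block. Leaving out each mouse, Myh11 ran from -0.11 to 1.17 for siLuc-LNP against control and from -0.0434 to 1.24 for the siHAS2-LNP interaction. Likewise Lrat ran from -1.16 to 0.014 for CCl4 + siHAS2-LNP against CCl4, and for siHAS2-LNP against siLuc-LNP Acta2 ran from -1.82 to 0.50 and Hgf from -0.86 to 0.0627.

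Mouse numbers carry no shared source, so the replicate block is an alternative only; besides the counts above it lost Hgf (1.19) and gained Cygb (0.74) for CCl4 against control, lost Myh11 (0.83) for the averaged effect and lost Acta2 (1.99) in the 4MU arm. With DESeq2 size factors mean levels moved by at most 0.450%, and with a prior count of 0.5 the number of related pairs was the same. Without CCl4 + 4MU mouse 4, 66 values of the genes with the largest change on the other lists could be tested again. Of these, 56 kept their call and 10 lost it. Genes left with too few counts to be tested, such as Actg2 and Lmod1, are not among the 66. Few counts limit Tagln, and the 2 mice of the CCl4 group limit every comparison with that group.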

Other observations

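Kupffer cell genes, which mark the resident macrophages of the liver, also differed between the CCl4 groups. Marco, a scavenger receptor, was lower by -6.63 (SE 0.682, adjusted p = 6.47e-06, edgeR) with CCl4 + siLuc-LNP and by -7.33 (SE 0.750, adjusted p = 5.13e-06, edgeR) with CCl4 + siHAS2-LNP, each against CCl4. With CCl4 + siHAS2-LNP, 4 of 5 Kupffer cell genes were lower, Vsig4 by -2.03, Clec4f by -1.72 and Timd4 by -1.28 besides Marco, where 7.33% of all genes were lower. With CCl4 + 4MU against CCl4 + siHAS2-LNP 3 of 5 were higher, where 0.765% of all genes were higher, and 3 of 5 also without CCl4 + 4MU mouse 4. Gas6, made by several liver cell types, measured 261 CPM in CCl4 + 4MU mouse 4 against 35.2 to 45.7 in the other 3 mice of its group and at most 145 in the other 26 livers.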
